A study of Mus musculus with 10 samples.

Results

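The striated muscle myosin heavy chains described here are 6 genes, *Myh3*, *Myh8*, *Myh7*, *Myh1*, *Myh2* and *Myh4*. They were chosen by name, as the rows of the count table whose Ensembl identifier maps to these symbols, and all 6 are among the 53465 genes counted. Only 4 of the 6 (*Myh3*, *Myh8*, *Myh7* and *Myh1*) had enough reads for the test between genotypes, which 16426 genes entered. RNA came from the whole pinna prominence, the forming outer ear, of mouse embryos at E14.5. The 5 wild-type (WT) libraries were set against 5 libraries from *mEC1dup/dup* embryos, a CRISPR/Cas9 knock-in on both alleles of an added copy of mEC1, an enhancer of the homeobox gene *Hmx1*. Both genotypes were sampled at the same embryonic day, and no other allele or treatment is named for either. The study's reporting summary describes the libraries as independent embryos and gives its mouse replicates as siblings from separate litters, without naming the litter of a library.

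Myosin heavy chains are the motor proteins of the thick filament of the sarcomere, and each muscle fibre is classed by the heavy chain it makes. Developing skeletal muscle makes the embryonic chain (*Myh3*) and the perinatal chain (*Myh8*) before the adult fast chains IIa (*Myh2*), IIx (*Myh1*) and IIb (*Myh4*) replace them, and *Myh7* is the chain of slow fibres and of the ventricle of the heart. The muscles that move the ear come from the second pharyngeal arch. In GRCm39, 5 of the members lie side by side on the plus strand of chromosome 11, in the order *Myh3* (66969126 to 66993117), *Myh2* (67061838 to 67088989), *Myh1* (67089132 to 67116631), *Myh4* (67128336 to 67151274) and *Myh8* (67167746 to 67199462). *Myh7* lies on the minus strand of chromosome 14 from 55208141 to 55232084. The Ensembl identifiers are ENSMUSG00000020908 (*Myh3*), ENSMUSG00000055775 (*Myh8*), ENSMUSG00000053093 (*Myh7*), ENSMUSG00000056328 (*Myh1*), ENSMUSG00000033196 (*Myh2*) and ENSMUSG00000057003 (*Myh4*).

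The members are alike in sequence, which bears on how well short reads tell them apart. Over the coding sequence, *Myh3* and *Myh8* were 80.8% identical, *Myh3* and *Myh7* 76.7%, and the neighbours *Myh1* and *Myh2* 91.0%, the highest of the 15 pairs. The 60 coding bases in which the 6 genes are least alike (mean identity over pairs 62.1%) show the kind of stretch that assigns a read to 1 gene. They are printed from 5′ to 3′ with capitals where a base differs from *Myh3*.
Myh3: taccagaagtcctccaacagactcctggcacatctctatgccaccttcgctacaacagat
Myh8: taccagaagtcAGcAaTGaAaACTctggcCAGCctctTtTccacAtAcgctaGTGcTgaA
Myh7: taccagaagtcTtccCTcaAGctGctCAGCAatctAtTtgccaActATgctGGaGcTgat
Myh1: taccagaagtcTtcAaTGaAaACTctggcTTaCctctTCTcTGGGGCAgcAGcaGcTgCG
Myh2: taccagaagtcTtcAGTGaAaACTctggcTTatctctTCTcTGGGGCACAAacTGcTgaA
Myh4: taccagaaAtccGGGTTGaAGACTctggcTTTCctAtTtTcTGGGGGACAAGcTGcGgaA
The stretch of *Myh3* lies at chr11:66979890-66979949 in exon 16 of 41. The stretch of *Myh8* lies at chr11:67180599-67180658 in exon 16 of 40. The stretch of *Myh7* lies at chr14:55224682-55224741 in exon 17 of 41. The stretch of *Myh1* lies at chr11:67099925-67099984 in exon 15 of 39. The stretch of *Myh2* lies at chr11:67072107-67072166 in exon 15 of 39. The stretch of *Myh4* lies at chr11:67139518-67139577 in exon 14 of 38. All of them are coding exon sequence of the canonical transcript, and those on chromosome 11 read on the plus strand and that of *Myh7* on the minus strand. In this window, *Myh8* differed from *Myh3* at 22 bases, *Myh7* at 20 and *Myh4* at 34. Of all 100-base windows along its canonical transcript, *Myh3* shared 1.15% with the transcripts of another gene (*Myh13*) and none with another member. *Myh8* shared 6.61%, with *Myh1*, *Myh2*, *Myh4* and *Myh13*, and *Myh7* shared 11.4%, all with its neighbour *Myh6*. With windows of 50 bases the shares were 4.81% for *Myh3*, part of it with the other members on chromosome 11, 21.4% for *Myh8* and 22.6% for *Myh7*. The adult fast chains *Myh1*, *Myh2* and *Myh4* shared 7.8%, 8.2% and 3.9% of windows of 100 bases, each in part with *Myh8*. At 50 bases they shared 21.5%, 24.1% and 19.1%, again in part with *Myh8*. The read length is not given in the sources used here. How reads with several matches were counted is not given in the sources used here.

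Whole-library measures differed between the groups in 2 ways that stand beside each result below. Total counts ranged from 17461544 to 18462073 per library. *Hmx1* had 66.2 ± 9.11 CPM (counts scaled to library size) in *mEC1dup/dup*, against 26.6 ± 3.0 CPM in WT (SD, n = 5), and its groups did not overlap, so the labels held for all 10 libraries. *Xist*, which marks cells with an inactive X chromosome, had at most 5 counts in each WT library but 12812, 19040, 18165, 2096 and 0 in *mEC1dup/dup* replicates 1 to 5. The Y-linked gene *Ddx3y* had 1289 to 1517 counts in WT and 241, 10, 16, 1219 and 1333 in *mEC1dup/dup*, so that *mEC1dup/dup* replicates 1 and 4 held reads of both kinds. Whether each of these libraries came from 1 embryo was not tested, and n = 5 counts libraries. The embryonic globins *Hbb-y*, *Hbb-bh1* and *Hba-x* made up 18.4% to 23.3% of all globin counts in WT and 32.5% to 35.6% in *mEC1dup/dup*.

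The embryonic, perinatal and slow heavy chains were all lower in the *mEC1dup/dup* pinna, whereas the difference of the adult fast chain *Myh1* did not pass the test. *Myh3* fell to 0.654 times, *Myh8* to 0.536 times and *Myh7* to 0.641 times the WT level, and *Myh1* stood at 0.942 times. Of the 16426 tested genes, 297 (1.81%) were called lower and 137 (0.834%) higher, where a call needs an average log2 CPM of at least 1 and, in the quasi-likelihood test of edgeR, a p of at most 0.05 after Benjamini-Hochberg adjustment over all tested genes. Against this, 3 of the 4 tested members were called lower and none higher. Every *mEC1dup/dup* library lay below every WT library for 3 of the 4, which 2.75% of tested genes did. In bulk tissue, fewer muscle cells and less of a transcript per muscle cell cannot be told apart.

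**Figure D1:**
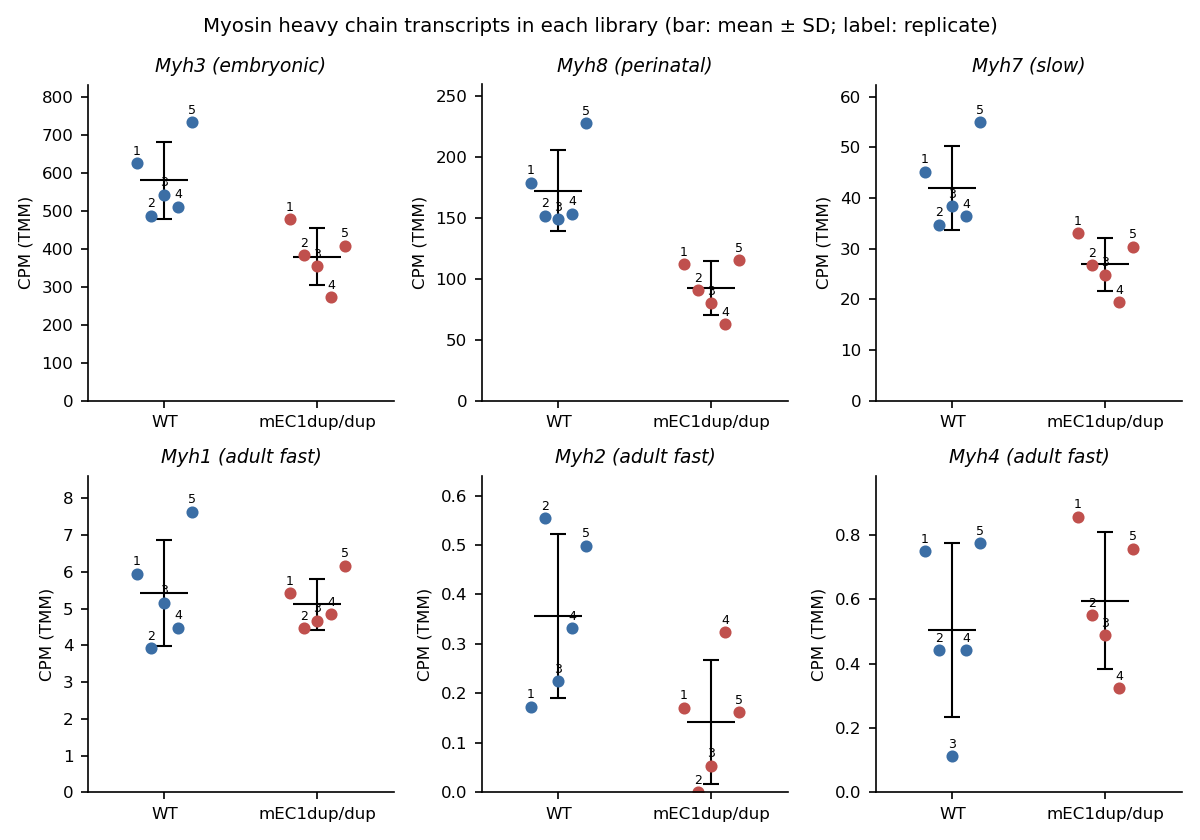
Normalised level (CPM scaled by TMM, vertical axis starting at 0) of each member in each WT (blue) and *mEC1dup/dup* (red) library, with replicate numbers above the points and bars at the mean ± SD (n = 5). For *Myh3*, *Myh8* and *Myh7* the 5 *mEC1dup/dup* points lie below all 5 WT points, and for *Myh1*, *Myh2* and *Myh4* the groups overlap.

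*Myh3*, the embryonic chain, was the most abundant member. Replicates 1 to 5 of WT held 10846, 8823, 9686, 9249 and 13273 reads of it, and those of *mEC1dup/dup* 8391, 6984, 6527, 5083 and 7551. WT replicate 5 was the highest library and *mEC1dup/dup* replicate 4 the lowest, and the groups did not overlap. After normalisation, this was 581 ± 101 CPM in WT and 380 ± 75.2 CPM in *mEC1dup/dup* (SD, n = 5 each). Its log2 fold change was -0.61 with a standard error (SE) of 0.14 and an adjusted p of 0.0331 (edgeR). The call was lost in 7 of 10 fits without a single library (WT replicates 1, 3 or 5, or *mEC1dup/dup* replicates 2, 3, 4 or 5), with adjusted p up to 0.0981 and log2 fold changes from -0.71 to -0.51 over the 10 fits.

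*Myh8*, the perinatal chain, had the largest fall of the tested members. Replicates 1 to 5 of WT held 3099, 2747, 2661, 2777 and 4115 reads, and those of *mEC1dup/dup* 1961, 1652, 1481, 1171 and 2138. The highest *mEC1dup/dup* library (replicate 5, 116 CPM) was below the lowest WT library (replicate 3, 149 CPM). The mean was 172 ± 33.2 CPM in WT and 92.5 ± 22 CPM in *mEC1dup/dup* (SD, n = 5 each). This gave a log2 fold change of -0.90 (SE 0.16), with an adjusted p of 0.0117 in edgeR. *Myh8* kept its call whichever of the 10 libraries was left out, with log2 fold changes from -0.995 to -0.78.

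*Myh7*, the slow chain, gave 782, 628, 685, 658 and 992 reads in replicates 1 to 5 of WT and 579, 486, 458, 360 and 562 in those of *mEC1dup/dup*. WT replicate 5 was again the highest library and *mEC1dup/dup* replicate 4 the lowest, with no overlap between the groups. Its level was 42.0 ± 8.27 CPM in WT and 26.9 ± 5.27 CPM in *mEC1dup/dup* (SD, n = 5 each) and its log2 fold change -0.64 (SE 0.15), with an adjusted p of 0.0363 in edgeR. The call was lost in 6 of 10 such fits (WT replicates 1, 3 or 5, or *mEC1dup/dup* replicates 2, 3 or 4), with adjusted p up to 0.106 and log2 fold changes from -0.73 to -0.52. Because *Myh7* is also a heart gene, the cardiac markers were read beside it. Of 8 cardiac markers, 4 could be tested and none was called by edgeR's quasi-likelihood or likelihood ratio test, DESeq2 or limma-voom. Their median log2 fold change was 0.44 (0.09 over genes with at least 10 counts in every library, and -0.09 over all 8 with no filter), and the most abundant, *Hcn4*, had 0.10 (adjusted p = 0.674, edgeR). Named after their values were seen, *Nkx2-5* had a log2 fold change of 0.85 (unadjusted p = 0.0064, adjusted p = 0.111, edgeR) with no overlap between the groups, and the atrial markers *Nppa* and *Myl7* had 1 and 5 counts in all 10 libraries together. The summed level of the 8 cardiac markers was 15.02 to 19.2 CPM in WT and 16.9 to 19.9 CPM in *mEC1dup/dup*. The antisense transcript *Mhrt* overlaps 24.6% of the exon bases of *Myh7*, and it had 0 or 1 counts in each library.

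Of the adult fast chains, only *Myh1* (IIx) passed the filter on low counts. WT held 103, 71, 92, 81 and 138 reads in replicates 1 to 5, and *mEC1dup/dup* 95, 81, 86, 90 and 114. The groups overlapped along most of their range, and WT replicates 2 and 5 were the lowest and the highest of all 10 libraries. Its log2 fold change was -0.09 (SE 0.18, edgeR adjusted p = 0.86), and it changed sign to 0.07 without WT replicate 5. *Myh4* (IIb) had 13, 8, 2, 8 and 14 counts in WT and 15, 10, 9, 6 and 14 in *mEC1dup/dup*, and the groups overlapped. *Myh2* (IIa) had 3, 10, 4, 6 and 9 counts in WT and 3, 0, 1, 6 and 3 in *mEC1dup/dup*, also with overlap. With no filter on low counts, *Myh2* had a log2 fold change of -1.28 (SE 0.64, adjusted p = 0.468) and *Myh4* of 0.24 (SE 0.43, adjusted p = 0.844, edgeR), so that a difference of either was not detectable at this depth. The antisense transcript *Myhas* overlaps 10.2% of the exon bases of *Myh1* and 5.78% of those of *Myh4*, and it had at most 2 counts in any library. The libraries were made with a kit that does not mark strand, so reads of a gene and of its antisense partner cannot be told apart.

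Per kilobase of canonical transcript, the order of the members was the same in both genotypes down to *Myh1*. In WT, the level was 96.3 ± 16.7 CPM per kilobase for *Myh3*, 28.0 ± 5.4 for *Myh8*, 6.84 ± 1.35 for *Myh7* and 0.720 ± 0.192 for *Myh1* (SD, n = 5). In *mEC1dup/dup* it was 63.0 ± 12.5, 15.04 ± 3.57, 4.39 ± 0.858 and 0.678 ± 0.0915 CPM per kilobase (SD, n = 5), in the same order. *Myh4* and *Myh2* came last, at 0.0848 ± 0.0457 and 0.0524 ± 0.0245 CPM per kilobase in WT (SD, n = 5), a gap within their spread. On this scale, *Myh3* made up 73.0% ± 0.896 of the 6 chains in WT and 75.8% ± 1.43 in *mEC1dup/dup*, and *Myh8* 21.2% ± 0.884 and 18.0% ± 1.35 (SD, n = 5 each). *Myh1* made up 0.539% ± 0.0522 and 0.834% ± 0.158. The length used moves these shares: per kilobase of all annotated exons, *Myh8* made up 13.15% in WT and 10.98% in *mEC1dup/dup*. The summed level of the 6 members was 680 to 1027 CPM in WT and 362 to 631 CPM in *mEC1dup/dup*.

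Whether the isoforms fell to different degrees was tested by their ratios within each library, which need no scaling between libraries. The perinatal chain fell further than the embryonic chain, the ratio of the summed adult fast chains, mostly *Myh1*, to the embryonic chain was higher in *mEC1dup/dup*, and the ratio of the slow to the embryonic chain did not pass the test. The log2 ratio of *Myh8* to *Myh3* was -1.81, -1.68, -1.86, -1.74 and -1.69 in WT replicates 1 to 5 and -2.10, -2.08, -2.14, -2.12 and -1.82 in *mEC1dup/dup* replicates 1 to 5. In 4 of the 5 *mEC1dup/dup* libraries it was below all WT libraries, and replicate 5, the *mEC1dup/dup* library with no *Xist* count, lay within the WT range. Replicate 4, with the next lowest *Xist* count of that genotype, was at -2.12. The genotype means differed by -0.29 (two-sided exact permutation test over all arrangements of the libraries, p = 0.0159, 0.0212 after Benjamini-Hochberg adjustment over 4 ratios, n = 5 and 5). This corresponds to 0.296 *Myh8* counts per *Myh3* count in WT and 0.242 in *mEC1dup/dup*. The part of the *Xist* difference in this ratio was not tested.

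The log2 ratio of *Myh7* to *Myh3* was nearly constant, at -3.80 ± 0.0320 in WT and -3.82 ± 0.0429 in *mEC1dup/dup* (SD, n = 5 each). The difference was -0.02 (exact permutation p = 0.357, adjusted p = 0.357, n = 5 and 5). Without *mEC1dup/dup* replicate 5, it was -0.04 with an adjusted p of 0.0397 (exact permutation test). The log2 ratio of *Myh7* to *Myh8* was -2.13 to -1.96 in WT and -1.93 to -1.69 in *mEC1dup/dup*, without overlap. It was higher by 0.27 in *mEC1dup/dup* (exact permutation p = 0.00794, the smallest this design allows, adjusted p = 0.0159, n = 5 and 5). The log2 ratio of the summed adult fast chains to *Myh3* was -6.62 to -6.36 in WT and -6.25 to -5.63 in *mEC1dup/dup*, also without overlap. Most of this sum is *Myh1* (485 reads in WT and 466 in *mEC1dup/dup*), beside 45 and 54 of *Myh4* and 32 and 13 of *Myh2*. The ratio was higher by 0.54 (exact permutation p = 0.00794, adjusted p = 0.0159, n = 5 and 5). The differences of the ratios of *Myh8* to *Myh3*, of *Myh7* to *Myh8* and of the adult fast chains to *Myh3* kept their direction and an adjusted p below 0.05 in all 10 exact tests without a single library. The same held with *mEC1dup/dup* replicates 1 and 4 left out together, with adjusted p of 0.0476, 0.0357 and 0.0357 in the exact tests.

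**Figure D2:**
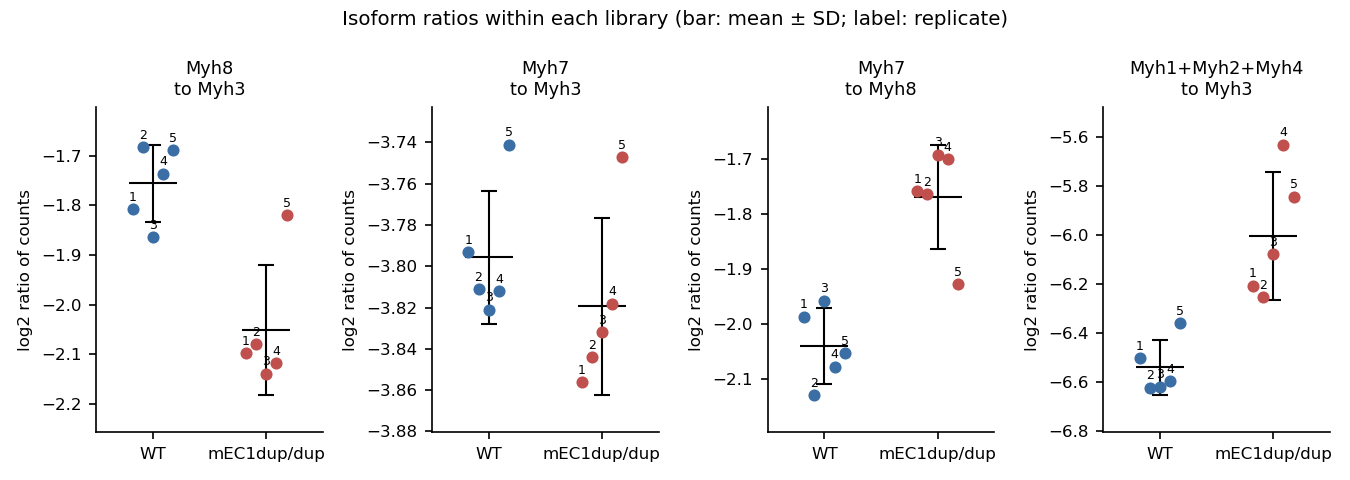
Log2 ratio of counts (vertical axis, not starting at 0) between isoforms in each WT (blue) and *mEC1dup/dup* (red) library, with replicate numbers and bars at the mean ± SD (n = 5). *Myh7* to *Myh8* and the adult fast chains to *Myh3* do not overlap between genotypes, and *mEC1dup/dup* replicate 5 (-1.82) lies within the WT range for *Myh8* to *Myh3*.

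The *Xist* and globin measures are given here beside the calls. In *mEC1dup/dup* replicate 5, with 0 *Xist* counts and a *Ddx3y* count in the WT range, *Myh3* had 409, *Myh8* 116 and *Myh7* 30.4 CPM. The lowest WT libraries had 488, 149 and 34.8 CPM. This is 1 library, and in all others *Xist* differed with genotype. The fit below, with *Xist* as a covariate, therefore does not separate the part of *Xist* in these levels from that of genotype. Once the log2 CPM of *Xist* entered the fit, *Myh3* had a log2 fold change of -0.58, *Myh8* of -0.71 and *Myh7* of -0.55, and none was called (adjusted p = 0.384, 0.320 and 0.426 from edgeR). Once the share of embryonic globin entered it in place of *Xist* they were -0.69, -0.95 and -0.68, with SEs of 0.61, 0.69 and 0.65 and adjusted p of 0.899, 0.898 and 0.906 from edgeR. The globin share did not overlap between the genotypes, so the 2 cannot be told apart. Without *mEC1dup/dup* replicates 1 and 4, *Myh3* (adjusted p = 0.0481) and *Myh8* (adjusted p = 0.0331) were called and *Myh7* was not (adjusted p = 0.0733, edgeR).

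**Figure D3:**
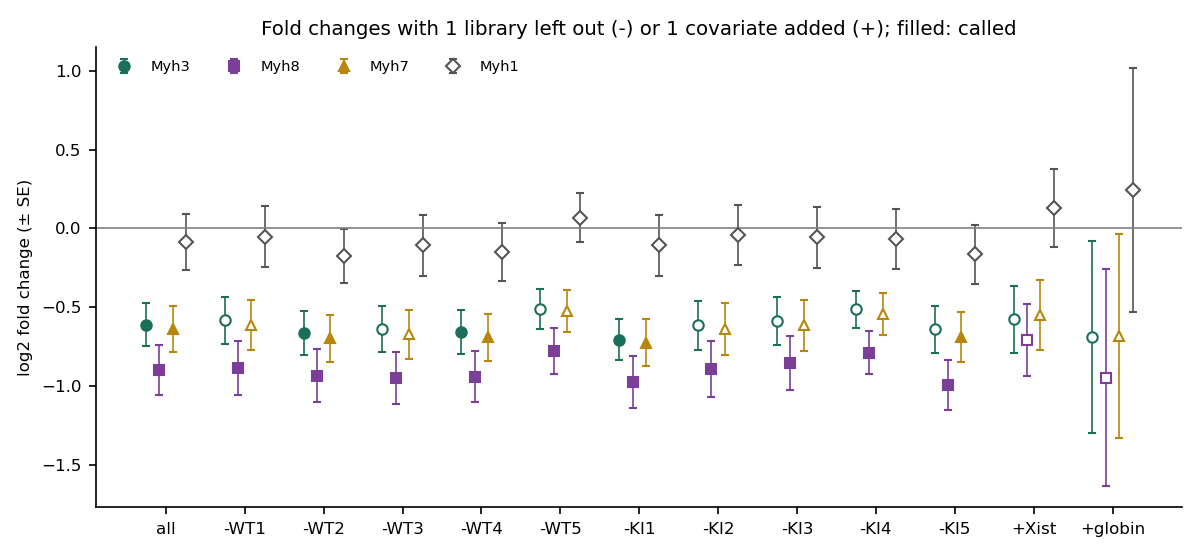
Log2 fold change ± SE (vertical axis) of *Myh3*, *Myh8*, *Myh7* and *Myh1* with all libraries, with 1 WT or *mEC1dup/dup* (KI) library left out, or with 1 covariate added; filled symbols are called. *Myh8* is called in all 10 fits without 1 library, *Myh3* in 3 and *Myh7* in 4, and none with a covariate.

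The fall of *Myh3* and *Myh7* together was set beside the sequence before their transcription starts, the 250 bases upstream of the canonical transcript in GRCm39. They are printed 5′ to 3′ on the strand of the gene because, of the 4 ratios, that of these members differed least between the genotypes, with motif matches on either strand in capitals.
Myh3: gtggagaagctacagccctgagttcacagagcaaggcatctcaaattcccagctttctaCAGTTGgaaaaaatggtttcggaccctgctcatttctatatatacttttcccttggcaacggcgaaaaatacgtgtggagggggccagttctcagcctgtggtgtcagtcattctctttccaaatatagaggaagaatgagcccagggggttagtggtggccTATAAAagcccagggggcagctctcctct
Myh7: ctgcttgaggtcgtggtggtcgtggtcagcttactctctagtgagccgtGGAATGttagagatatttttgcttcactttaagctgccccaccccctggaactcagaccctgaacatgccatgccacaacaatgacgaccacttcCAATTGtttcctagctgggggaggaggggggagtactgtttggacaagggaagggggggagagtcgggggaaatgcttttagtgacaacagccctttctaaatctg
The *Myh3* stretch is chr11:66968876-66969125 on the plus strand and the *Myh7* stretch is chr14:55232084-55232333 on the minus strand. Each held 1 E-box (CANNTG, the site of MyoD family factors), starting 191 bases upstream in *Myh3* and 106 in *Myh7*. An E-box stood in 64.8% of 21770 protein-coding promoters of this length. *Myh3* also held TATAAA (11.9% of promoters, 7.3% of those of tested genes), starting 29 bases upstream, and *Myh7* held an MCAT motif (CATTCC, the site of TEAD factors, 12.1% of promoters), starting 201 bases upstream. A MEF2 motif (3.32% of promoters), the MEF3 motif TCAGGTT (3.53%) and the HMX core CAAGTG, a form of the E-box (12.4%), had no match in these letters. The *Myh8* stretch held 1 E-box and 1 TATAAA match and is not printed, since most of it lies in an exon of another *Myh8* transcript. Nothing was measured on these stretches here.

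Other heavy chains of striated muscle were at low levels and none of them was called by edgeR's quasi-likelihood test or limma-voom, while DESeq2 and edgeR's likelihood ratio test each called 1 of the 2 that could be tested (2 had an unadjusted p under 0.05 in edgeR). *Myh7b*, a slow-type chain, had 19.4 ± 3.73 CPM in WT and 12.3 ± 3.8 CPM in *mEC1dup/dup* (SD, n = 5 each), and *Myh6*, the atrial chain, 3.40 ± 1.09 and 2.23 ± 0.283 CPM. Their log2 fold changes were -0.66 (SE 0.20, adjusted p = 0.101) and -0.61 (SE 0.22, adjusted p = 0.176, edgeR), similar in size to that of *Myh7* but not past the threshold. *Myh13*, the chain of eye muscles, and *Myh15* had too few counts to test (100 and 18 in all libraries together). The heavy chains of non-muscle and smooth muscle cells, *Myh10*, *Myh9*, *Myh14* and *Myh11*, had log2 fold changes of -0.02, -0.18, -0.07 and -0.10, with adjusted p of 0.915, 0.31, 0.904 and 0.853 in the edgeR fit. Without WT replicate 4, 1 of these 4 was called lower. Their summed level was 684 to 923 CPM in WT and 728 to 818 CPM in *mEC1dup/dup*.

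**Figure D4:**
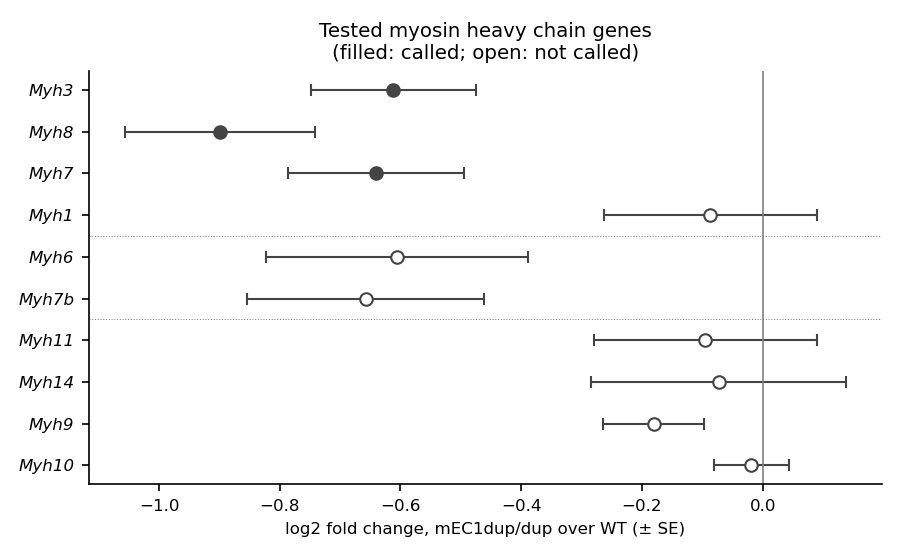
Log2 fold change of *mEC1dup/dup* over WT ± SE (horizontal axis) for the 10 heavy chain genes that passed the filter, members first, then other striated muscle chains, then smooth and non-muscle chains. Filled points (*Myh3*, *Myh8* and *Myh7*) are called lower, and open points are not called.

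Of 14 tested partners of the heavy chains in the thick filament, 6 were called lower, none higher and 8 were not called, with a median log2 fold change of -0.52, beside -0.004 over all tested genes. Those with the smallest p were *Mybpc1*, slow myosin-binding protein C, at a log2 fold change of -0.53 (adjusted p = 0.00327), titin (*Ttn*), the giant spring protein of the sarcomere, at -0.72 (adjusted p = 0.00632), and the slow regulatory light chain *Myl2* at -1.92 (adjusted p = 0.00809, edgeR). *Myl2* had 4.55 ± 1.48 CPM in WT and 1.20 ± 0.528 CPM in *mEC1dup/dup* (SD, n = 5 each). Of 8 factors that fold heavy chains or turn them over, none was called by edgeR's quasi-likelihood test or limma-voom (1 at an unadjusted p under 0.05 in edgeR) and 1 by DESeq2 and by edgeR's likelihood ratio test, the median was -0.27, and the chaperone *Hsp90aa1* stood at -0.01 (adjusted p = 0.931).

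Genes of slow and of fast fibres both held lower calls. The muscle lists share genes, so calls in different lists are not all separate genes. *Myl2* and *Myl3* are in the thick filament and slow lists, and *Mylpf*, *Myl1* and *Mybpc2* in the thick filament and fast lists. *Des* is in the thin filament and lineage lists, and *Myf5*, *Myod1* and *Myog* are in the regulator and lineage lists. In the slow list, 4 of 10 tested genes were called lower, none higher, with a median of -0.48. *Myl2*, *Myl3* and *Fhl1* had the smallest p, and *Myl3*, the slow essential light chain, stood at -1.36 (adjusted p = 0.0099, edgeR). In the fast list, 5 of 10 tested genes were called lower and none higher, with a median of -0.60. *Ckm*, muscle creatine kinase, fell from 27.8 ± 4.2 CPM in WT to 5.86 ± 2.53 CPM in *mEC1dup/dup* (SD, n = 5 each), or by -2.25 in log2 (adjusted p = 0.00126, edgeR). Fast troponins T (*Tnnt3*) and I (*Tnni2*) had log2 fold changes of -1.06 and -0.94 (adjusted p = 0.00563 and 0.00788, edgeR). In the thin filament and Z-disc, 3 of 10 were called lower and none higher, with a median of -0.49. The skeletal alpha-actin *Acta1* stood at -0.88 (adjusted p = 0.00804), the Z-disc protein *Ldb3* at -0.91 (adjusted p = 0.0159) and nebulin (*Neb*), the thin filament ruler, at -0.64 (adjusted p = 0.0321, edgeR).

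None of the 10 genes that mark the skeletal muscle lineage was called by edgeR's quasi-likelihood or likelihood ratio test, DESeq2 or limma-voom, and 2 had an unadjusted p under 0.05 in the quasi-likelihood test. Their median log2 fold change was -0.05, and the most abundant, desmin (*Des*), had -0.40 (adjusted p = 0.14). In 6 of the 10 the log2 fold change was below 0. The ends of the range, named after their values were seen, were *Pax3* at -0.56 (adjusted p = 0.179) and *Myog* at 0.12 (adjusted p = 0.745, edgeR). The mean log2 CPM of the 10 markers was 4.69 ± 0.235 in WT and 4.59 ± 0.240 in *mEC1dup/dup* (SD, n = 5 each). Relative to this mean, *Myh3* stood 4.48 ± 0.173 above it in WT and 3.96 ± 0.129 in *mEC1dup/dup* on the log2 scale. *Myh8* stood 2.72 ± 0.148 and 1.91 ± 0.147 above it, and *Myh7* 0.685 ± 0.179 and 0.141 ± 0.103, and for these 3 members the groups did not overlap. Their groups were also apart in plain CPM, where every *mEC1dup/dup* library lay below every WT library for 2.75% of tested genes. How many tested genes separate relative to this mean, or to the list means below, was not computed. Relative to the mean of the thin filament, slow or fast list, the groups overlapped for *Myh3*, with differences of -0.12, -0.02 and 0.16, and for *Myh7*, with -0.14, -0.04 and 0.14. For *Myh8* the differences were -0.41, without overlap, and -0.31 and -0.13, with overlap. For *Myh1* they were 0.44, with overlap, and 0.54 and 0.73, without overlap, beside 0.04, with overlap, relative to the lineage markers. Of 19 regulators linked to the choice of heavy chain, 1 was called lower and none higher by edgeR's quasi-likelihood test and limma-voom, with a median of -0.02, while DESeq2 and the likelihood ratio test each also called 1 higher (*Tbx15*). This was *Myf6* (MRF4), the myogenic factor of differentiated fibres, which fell from 3.84 ± 0.827 to 1.33 ± 0.464 CPM (SD, n = 5 each) and had -1.52 on the log2 scale (adjusted p = 0.00804, edgeR). With the log2 CPM of *Xist* or the share of embryonic globin in the fit, no gene of these muscle lists was called. Without *mEC1dup/dup* replicates 1 and 4, 4 thick filament, 2 slow, 3 fast and 3 thin filament genes were called lower, and of the regulators 1 was lower and 1 higher (*Eya1*, also called higher without *mEC1dup/dup* replicate 1 alone). With single libraries left out, the genes called lower ranged from 4 to 9 for the thick filament list (4 without *mEC1dup/dup* replicate 2 or 3), from 3 to 4 for the slow list, from 3 to 7 for the fast list (3 without *mEC1dup/dup* replicate 2, 3 or 4) and from 1 to 3 for the thin filament list (1 without *mEC1dup/dup* replicate 2 or 3). In those fits the median of the lineage markers ran from -0.12 to 0.09, above 0 without WT replicate 5 or *mEC1dup/dup* replicate 4.

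**Figure D5:**
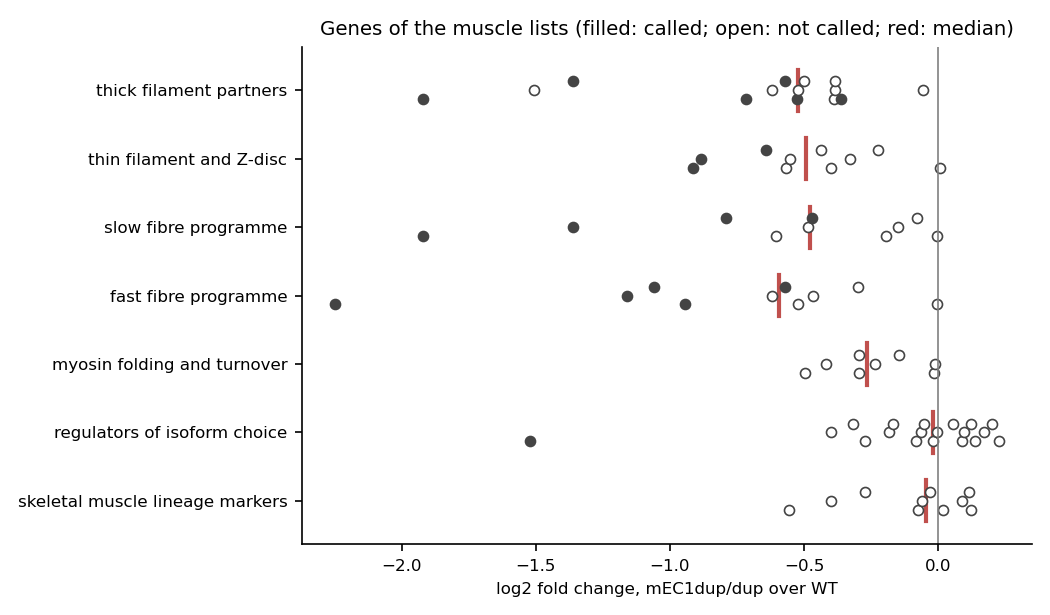
Log2 fold change of *mEC1dup/dup* over WT (horizontal axis) of each tested gene in 7 muscle lists, filled where called, with the median of each list in red. The medians lie between -0.60 and -0.48 for the filament, slow and fast lists and at -0.05 for the lineage markers.

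Markers of other tissues were read over whole lists, since the pinna prominence holds several. Of the fibroblast markers, 1 of 7 was called lower (*Lum*), with a summed level of 9062 to 14840 CPM in WT and 9860 to 10840 CPM in *mEC1dup/dup*. The median log2 fold change of this list was -0.28, with 5 of 7 below 0 and 4 at an unadjusted p under 0.05 in edgeR. DESeq2 and the likelihood ratio test each called 2 fibroblast markers lower, and 3 were called lower without WT replicate 4. Of the epithelial markers, 2 of 5 were called lower (*Krt5* and *Krt14*), with 649 to 1134 CPM in WT and 520 to 686 CPM in *mEC1dup/dup*. Their median log2 fold change was -0.50, with 4 of 5 below 0, and neither kept a call without WT replicate 2, without any 1 of *mEC1dup/dup* replicates 2 to 5, or without *mEC1dup/dup* replicates 1 and 4. None of 4 chondrocyte markers was called (highest *Col2a1*, 4048 to 6856 CPM summed in WT and 1937 to 5602 in *mEC1dup/dup*), nor any of 3 endothelial (*Cdh5*), 5 tested smooth muscle (*Acta2*) or 4 tested cardiac (*Hcn4*) markers, by edgeR's quasi-likelihood test, DESeq2 or limma-voom. The likelihood ratio test called 1 chondrocyte marker lower. Over the chondrocyte list the median was -0.27, with 3 of 4 below 0. At an unadjusted p under 0.05 in edgeR there were 1 chondrocyte, 1 endothelial, 3 smooth muscle and 1 cardiac marker. Of 7 erythroid genes, *Hbb-y* and *Hba-x* were called higher and *Hba-a2* lower, and limma-voom called 1 higher and 1 lower. No erythroid gene was called without WT replicate 1, 2, 3 or 5, or without *mEC1dup/dup* replicate 2 or 3. Without *mEC1dup/dup* replicate 5, 3 were called lower and 1 higher. No marker of the lists was at 0 in every library. The part of these tissues in the levels of the heavy chains was not tested.

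Within a genotype, *Myh3*, *Myh8* and *Myh7* rose and fell together from library to library, and *Myh2* and *Myh4* were not examined. After the mean of each genotype was subtracted, the log2 CPM of *Myh3* and *Myh7* had a Pearson correlation of 0.992 over the 10 libraries, *Myh8* and *Myh7* 0.967 and *Myh3* and *Myh8* 0.942, whereas *Myh1* had 0.713 to 0.776 with the others. These libraries share depth and dissection, and the values are descriptions. Of 14076 other genes with an average log2 CPM of at least 1, the most like *Myh3* by this measure was *Nrk* (0.977), followed by *Atp7a* and *Lins1*. For *Myh8* these were *Ehbp1l1* (0.973), *Synpo2l* and *B4galt1*, and for *Myh7* again *Nrk* (0.977), then *Mypn* and *Fbxl17*. None of these genes was called between the genotypes.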

How the data were processed

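Bulk RNA of pinna prominences was sequenced as 5 WT and 5 *mEC1dup/dup* libraries. The authors used fastp to trim paired reads, STAR to align them to GRCm39 and featureCounts to count them per gene, and deposited raw counts, not normalised. The annotation release, the use of strand and the handling of reads with several matches are not given in the sources used here. The labels and the paper name different library kits, neither of which marks strand. P-values cover the spread between these libraries.

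Symbols came from GENCODE vM39 on GRCm39, which matched 49355 of 53465 identifiers, and unmatched genes held 0.111% of counts. Genes were filtered with filterByExpr, normalised by TMM and fitted with edgeR version 4.0.16 (quasi-likelihood, genotype only) in R version 4.3.3, with Benjamini-Hochberg adjustment over 16426 genes. Ratios used a pseudocount of 0.5 and log2 CPM a prior count of 2. Coding sequences were aligned with mafft version 7.526. Depth was 17461544 to 18462073 counts per library. In simulated counts of this comparison (16266 genes, 200 changed by a log2 fold change of 1), 95.5% of changed genes were called.

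The members and gene lists were chosen with earlier results of these data known. Named genes were all members, the checks (*Hmx1*, *Xist*, Y-linked genes, globins), other heavy chains, the 3 called genes of smallest p in each list or, where none was called, its most abundant gene, and the 3 genes most correlated with each of the 3 most abundant members. Alternatives were other scalings (DESeq2 version 1.42.0, upper quartile, totals alone), other tests (DESeq2, limma-voom with limma version 3.58.1, likelihood ratio), other filters, a replicate block, 2 covariates and each library left out. Leaving out *mEC1dup/dup* replicates 1 and 4 together and the length of all annotated exons were added after seeing the data.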

Additional observations from a re-analysis of the deposited data

Results flagged for a closer look

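In 26 groups of 5 libraries examined for a value far from the rest, 1 stood out, where chance flags about 1 in 20 groups. The log2 ratio of *Myh8* to *Myh3* was -1.82 in *mEC1dup/dup* replicate 5, and the nearest of the other *mEC1dup/dup* libraries was at -2.08, a gap of 0.812 of the range of the group. Replicate 5 was also the *mEC1dup/dup* library with no *Xist* count. Replicate 4, the *mEC1dup/dup* library with the next lowest *Xist* count, was at -2.12.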

How the results depend on the processing

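Under 13 alternatives that kept all samples or left out *mEC1dup/dup* replicates 1 and 4, *Myh3* and *Myh8* kept their call in 11 and *Myh7* in 10, and every log2 fold change of these 3 members was negative. Among these alternatives, dropping the threshold on average log2 CPM reuses the main fit and could not remove a call. With the log2 CPM of *Xist* as a covariate, *Myh3* (-0.58), *Myh8* (-0.71) and *Myh7* (-0.55) lost their call, *Myh1* turned to 0.13, and 1 gene was called lower and 2 higher. With the share of embryonic globin as covariate, *Myh3* (-0.69), *Myh8* (-0.95) and *Myh7* (-0.68) were no longer called, *Myh1* turned to 0.24, and 0 genes were called lower and 0 higher by edgeR (384 and 409 at an unadjusted p under 0.05). Both covariates differ between the genotypes, and the standard errors rose with them. Without *mEC1dup/dup* replicates 1 and 4, *Myh7* (-0.61, adjusted p = 0.0733 from edgeR) was not called, and 105 genes were lower and 42 higher. DESeq2's Wald test called 510 lower and 321 higher, and edgeR's likelihood ratio test 447 and 219; the cause was not tested.

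With each library left out in turn, log2 fold changes ranged from -0.71 to -0.51 for *Myh3*, from -0.995 to -0.78 for *Myh8*, from -0.73 to -0.52 for *Myh7* and from -0.18 to 0.0684 for *Myh1*. Genes called lower ranged from 120 to 476 and higher from 34 to 179. The difference in the log2 ratio of *Myh7* to *Myh3* ranged from -0.0415 to -0.0099, and only without *mEC1dup/dup* replicate 5 did it pass the threshold. The labels do not say that a replicate number marks a shared litter or day. Correlations of same-numbered libraries were -0.06, 0.14, 0.18, 0.34 and 0.20, above 0.1 in 4 of 5 pairs. For 2 of 5 WT libraries, the highest correlation was with the *mEC1dup/dup* library of the same number. Pairing was neither established nor excluded by these values. With the replicate block, the SEs of *Myh3*, *Myh8* and *Myh7* were 0.078, 0.073 and 0.081, against 0.14, 0.16 and 0.15 without it. With the block, *Myh3* (-0.62), *Myh8* (-0.91) and *Myh7* (-0.64) kept their calls (adjusted p = 0.0022, 0.000379 and 0.0023 from edgeR), *Myh1* stood at -0.07, and 487 genes were called lower and 200 higher. Called lower were then 9 thick filament, 6 slow, 9 fast, 6 thin filament, 4 epithelial and 2 fibroblast genes. So were 1 each of the other striated chains, folding factors, lineage markers (*Des*, adjusted p = 0.0339) and chondrocyte markers (*Acan*, adjusted p = 0.046, edgeR). A gene that stands in 2 lists, such as *Des*, is counted in each. Per kilobase of all annotated exons in place of the canonical transcript, WT shares were 82.3% for *Myh3*, 13.2% for *Myh8* and 3.89% for *Myh7*, against 73.0%, 21.2% and 5.17%. Depth limits *Myh2* and *Myh4*, with at most 10 and 15 counts in any library.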
